A study of Mus musculus with 283 samples.

Results

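The 6 mouse genes described here are the Ifi200 family members Ifi202b, Ifi203, Ifi204, Ifi205 and Aim2, and Pycard, which encodes the adaptor ASC that Aim2 uses. They were chosen by symbol, with earlier results of these arrays known, among them differences between host strains in spleens and nodes, so levels by strain are given as a description with no test. A gene was measured by the probe set annotated to its symbol alone. Of the 6 genes, 5 were measured, out of 15224 genes in all. Ifi204 was not measured, because its 1 probe set also carries other gene symbols, and none of 13 further Ifi200 family symbols looked for had a probe set of its own. Ifi203 (chr1:173920400-173942866), Ifi202b (chr1:173962569-173982844), Ifi205 (chr1:174011998-174031755) and Aim2 (chr1:173349547-173466040) lie close together on chromosome 1, and Pycard lies at chr7:127991373-127993867 (RefSeq gene positions, build GRCm38.p6).

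Ifi200 family proteins are interferon-inducible and carry HIN domains, which bind DNA. Aim2 binds double-stranded DNA in the cytosol and recruits Pycard, which brings caspase-1 into an inflammasome that matures interleukin-1β and interleukin-18. The product of Ifi202b, p202, has HIN domains but lacks the pyrin domain through which Aim2 contacts Pycard, and in mice it can hold Aim2 back. Ifi202b is known for expression that differs between inbred strains and as a candidate gene for lupus susceptibility in mice, and the product of Ifi205, p205, has been tied to Pycard expression in mouse macrophages.

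The study profiled transplanted mouse tumours, the draining lymph node and spleen of the same mice, the cell lines in culture, and organs of mice without tumours, on 283 Affymetrix exon arrays with values on the log2 scale after RMA. The lines were implanted subcutaneously on the back; PAN02 alone was orthotopic, in the pancreas, and has no nodes here. BALB/c females carried 4T1 (mammary), CT26 (colon) or Renca (kidney), DBA/2J females carried P815 (mastocytoma), C57BL/6J males carried TRAMPC1 or TRAMPC2 (prostate), and C57BL/6J females carried 4 stocks of B16 melanoma (B16F0 and B16F10, each from 2 sources), LL2 (lung), MC38 (colon), EL4 (lymphoma), TC1 (lung) or PAN02 (pancreas). The references were tumour-free BALB/c females, DBA/2J females, C57BL/6J females and C57BL/6J males, with 5 spleens and 5 nodes each. There were 77 tumours of 15 models, 92 nodes, 98 spleens and 16 cultures, with 5 arrays per group except MC38 (8 tumours, 8 spleens and 7 nodes) and PAN02 (4 tumours), and 1 array per culture; Hepa1-6 and ID8 were analysed as cultures only, and TC1 as organs and tumours only. Every mouse of a strain other than C57BL/6J was female, every line was grown in 1 strain only, and the tumour-free mice and cultures have the later sample numbers, so an effect of that order and of tumour status or culture cannot be told apart. Mice are separate animals by their labelled numbers, and each culture is a single sample. RMA values have no true zero, and 4.3, the 25th percentile of all values, is used below as the level under which a probe set is read as low.

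Before the results, 13 of the 190 node and spleen arrays stood apart from their labelled tissue. Among nodes of tumour-bearing BALB/c mice, 6 arrays (1 of 4T1, 2 of CT26 and 3 of Renca) correlated with their own tumour model at 0.959 to 0.982 and with other nodes at 0.666 to 0.693. Their B cell markers averaged 4.25 to 4.51, against 7.92 to 9.09 on the 82 nodes that did not stand apart. In tumour-free C57BL/6J females, 2 arrays labelled node were closest to spleens, with the red pulp macrophage iron exporter Slc40a1 at 8.56 and 8.82, and 2 labelled spleen were closest to nodes, with Slc40a1 at 4.32 and 4.33. A tumour-free BALB/c spleen array was also closest to nodes (Slc40a1 4.88). The remaining 2 were tumour-free nodes low in B cell markers, 1 of C57BL/6J females (6.40) and 1 of DBA/2J females (4.38), with fat cell markers at 7.65 and 9.14. Labels were kept, and results that rest on these arrays are given with and without them. Without them only 3 spleens and 2 nodes of tumour-free C57BL/6J females remain as reference, which limits every value given that way. All 77 tumours were closest to tumours.

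Of the 5 measured genes, 3 have RefSeq promoter windows that hold letters of an interferon-response motif. These windows are shown because interferon-stimulated genes are counted beside the members below. Each runs from 250 bases before to 50 bases after a start given by RefSeq on GRCm38.p6, minus strand, 5′ to 3′, with motif matches in capitals: Ifi202b at chr1:173982795-173983094, Ifi203 at chr1:173942443-173942742 and Ifi205 at chr1:174031706-174032005.
Ifi202b: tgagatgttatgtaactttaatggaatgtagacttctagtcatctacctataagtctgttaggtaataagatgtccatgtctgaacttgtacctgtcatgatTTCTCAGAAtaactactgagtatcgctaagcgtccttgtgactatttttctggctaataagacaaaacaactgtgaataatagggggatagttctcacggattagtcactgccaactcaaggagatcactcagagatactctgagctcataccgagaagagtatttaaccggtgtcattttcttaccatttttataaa
Ifi203: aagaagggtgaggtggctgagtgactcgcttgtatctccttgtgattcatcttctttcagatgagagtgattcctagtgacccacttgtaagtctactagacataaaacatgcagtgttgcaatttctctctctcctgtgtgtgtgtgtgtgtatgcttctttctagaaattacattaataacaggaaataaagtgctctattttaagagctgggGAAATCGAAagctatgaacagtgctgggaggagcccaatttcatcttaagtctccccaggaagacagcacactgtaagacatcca
Ifi205: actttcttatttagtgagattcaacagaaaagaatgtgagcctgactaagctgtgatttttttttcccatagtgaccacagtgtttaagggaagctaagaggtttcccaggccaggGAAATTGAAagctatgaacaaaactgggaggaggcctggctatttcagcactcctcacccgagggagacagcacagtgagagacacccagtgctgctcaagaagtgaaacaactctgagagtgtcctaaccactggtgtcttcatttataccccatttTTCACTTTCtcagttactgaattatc
The letters searched, on both strands, were GAAANNGAA, the core of the interferon-stimulated response element, and TTCNNNGAA, the core of the gamma-activated site. The first was in 8.56% and the second in 8.3% of all 32851 promoter windows of this length. Ifi203 held 1 match to the first (GAAATCGAA, first base at -35 from the start), and Ifi205 held 2 (GAAATTGAA at -134, and TTCACTTTC, the motif on the opposite strand, at 25). Ifi202b held 1 match to the second (TTCTCAGAA at -148). The windows of Aim2 and Pycard held neither set of letters, nor did the window of another Ifi203 start; both Ifi203 starts lie inside the gene's annotated span, so its position counts from 1 of them. Ifi203 and Ifi205 shared a run of 14 letters, gaaagctatgaaca, which overlaps the end of the motif match in both. These are letter matches in the reference genome, and binding was not measured.

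Ifi202b, the negative regulator, was the gene that separated the host strains. In tumour-free spleens it stood at 5.78, 6.11, 5.94, 5.51 and 5.21 in DBA/2J females and at 4.14, 3.55, 3.48, 3.75 and 3.66 in BALB/c females, against 2.30, 2.34, 3.02, 2.50 and 2.95 in C57BL/6J females. The 3 sets of 5 arrays did not overlap, and C57BL/6J males (2.48 ± 0.22, SD, n = 5) lay within the range of C57BL/6J females. The difference from C57BL/6J females was 3.09 for DBA/2J and 1.09 for BALB/c. C57BL/6J and BALB/c spleens lay below 4.3 on every tumour-free array, so no fold is given against them, and the smaller difference lies between low signals and did not enter the genes counted by strain.

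Nodes without tumours gave the same order. Ifi202b stood at 5.38, 5.77, 5.05, 5.49 and 6.38 in DBA/2J females and at 2.97, 3.80, 4.20, 3.92 and 4.08 in BALB/c females, against 2.65, 2.33, 2.92, 2.48 and 2.59 in C57BL/6J females. Again no groups overlapped, and the differences from C57BL/6J were 3.02 and 1.20. Without the arrays that stand apart they were 2.64 and 1.01 in nodes and 3.11 and 1.13 in spleens. Over all 283 arrays Ifi202b exceeded 4.3 on 59. In spleens these were 10 of 10 DBA/2J and 7 of 20 BALB/c arrays, against 0 of 68 C57BL/6J arrays; in nodes they were 10 of 10 and 7 of 20, against 0 of 62, and 6 of those 7 BALB/c nodes were the tumour-like ones. The array's probes were designed on the reference genome, which is C57BL/6J, and a strain difference in RNA cannot be told apart here from a strain difference in probe sequence.

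Ifi203 and Ifi205 ran the other way, with C57BL/6J highest in spleens. Ifi203 stood at 6.31, 6.57, 6.71, 6.03 and 6.84 in tumour-free DBA/2J spleens and at 7.18, 7.48, 7.44, 7.11 and 7.13 in BALB/c spleens, against 8.78, 8.30, 8.07, 7.13 and 8.22 in C57BL/6J females. DBA/2J did not overlap C57BL/6J (a difference of -1.61, or -1.39 without the arrays that stand apart), whereas BALB/c did (-0.83, or -0.58). Ifi205 stood at 6.00, 5.46, 5.25, 5.61 and 5.15 in BALB/c spleens, against 7.34, 6.65, 6.67, 6.46 and 7.11 in C57BL/6J females, with no overlap and a difference of -1.35 (-1.16 without those arrays). In DBA/2J spleens Ifi205 averaged 6.04 ± 0.38 (SD, n = 5), a difference of -0.81 from C57BL/6J without overlap. In tumour-free nodes DBA/2J and BALB/c overlapped C57BL/6J for both genes. Ifi203 averaged 6.75 ± 0.84 in DBA/2J and 7.94 ± 0.38 in BALB/c, against 7.78 ± 1.28 in C57BL/6J. Ifi205 averaged 6.07 ± 0.54 and 6.24 ± 0.69, against 6.38 ± 0.91 (SD, n = 5 each). The C57BL/6J node low in B cell markers had the lowest Ifi203 (5.51) and Ifi205 (4.85) of its group. The other C57BL/6J nodes had Ifi203 at 8.17 to 8.56, above every DBA/2J node (highest 7.37). The Ifi203 difference of DBA/2J nodes was -1.03, or -1.32 without the arrays that stand apart.

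Aim2, the DNA-binding sensor, and Pycard overlapped between strains in spleens and in nodes. In spleens Aim2 averaged 9.88 ± 0.25 in tumour-free DBA/2J spleens and 9.18 ± 0.38 in BALB/c spleens, against 9.57 ± 0.28 in C57BL/6J females. Pycard averaged 6.23 ± 0.32 and 5.59 ± 0.44, against 5.95 ± 0.13 (SD, n = 5 each), and the groups overlapped for both genes. In nodes the differences from C57BL/6J females were 0.22 in DBA/2J and 0.65 in BALB/c for Aim2, and 0.81 and 0.32 for Pycard, again with overlap; without the arrays that stand apart they were 0.53 and 0.27, and 0.65 and -0.02. Pycard was above 4.3 on all 283 arrays, within a range of 4.45 to 8.36.

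Set against all genes, the strain differences of the family stand as follows. A gene counted when the 5 arrays of each group did not overlap and the means lay at least 1 apart. In DBA/2J spleens 2 of 5 genes counted (Ifi202b and Ifi203), where 0.956% of all genes did, and in BALB/c spleens 1 of 4 (Ifi205), where 0.609% did. In DBA/2J nodes 1 of 5 counted (Ifi202b), where 1.23% of all genes did, and in BALB/c nodes 0 of 4, where 0.164% did. Without the arrays that stand apart Ifi203 counted too in DBA/2J nodes. That rests on 4 DBA/2J and 2 C57BL/6J nodes, so the share of all genes is no background for it. Ifi202b entered the DBA/2J counts only because it passed the low-value filter through the DBA/2J arrays themselves, so it had to differ there, and since the genes were chosen with these differences known nothing is read from the shares. Around the Ifi200 genes, 30 measured genes start within 1 Mb, of which 12 passed the filter for DBA/2J spleens and 1 counted, the olfactory receptor gene Olfr419 at 6.41 in DBA/2J spleens, against 4.89 in C57BL/6J spleens. In the other 3 contrasts none of the 12 or 13 neighbours that passed counted.

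**Figure D1:**
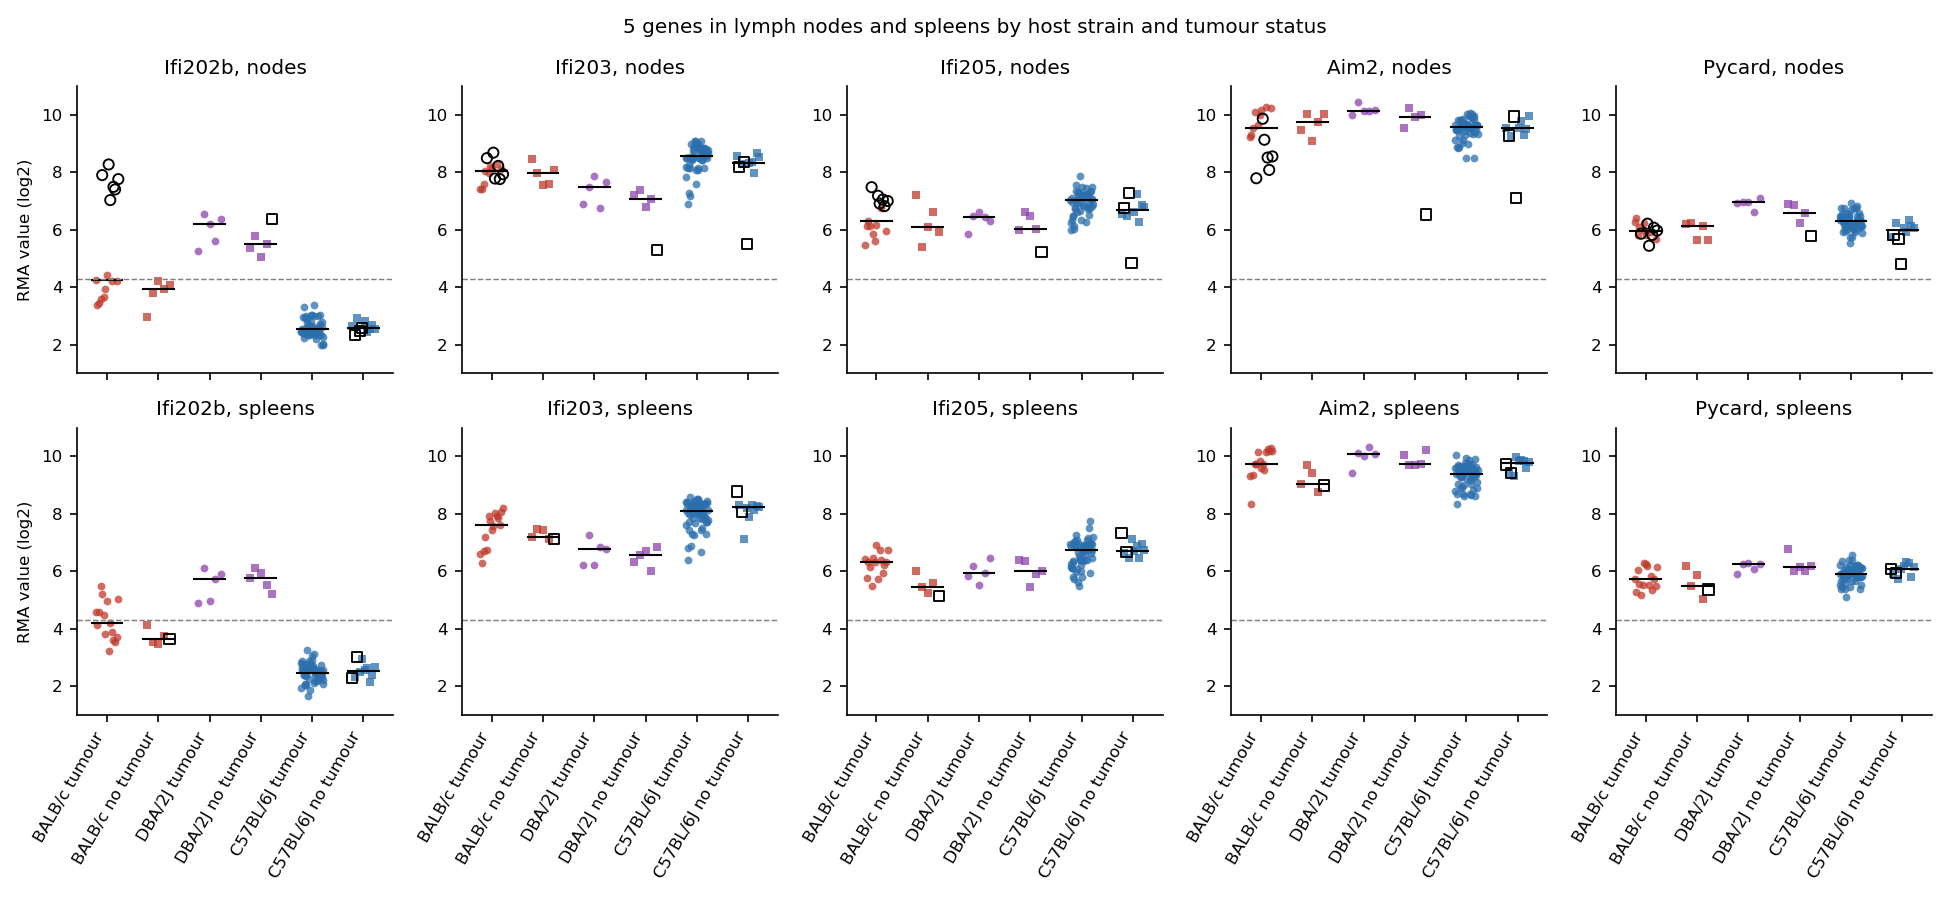
Log2 RMA level of Ifi202b, Ifi203, Ifi205, Aim2 and Pycard (vertical axes) on every spleen and node array, by host strain, with circles for tumour-bearing and squares for tumour-free mice, open black symbols for arrays that stand apart, a bar at each median and a dashed line at 4.3. All DBA/2J spleens and nodes lie above 4.3 for Ifi202b, and no C57BL/6J spleen or node does.

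In tumour-bearing mice the strain order of Ifi202b held in spleens. DBA/2J spleens with P815 stood at 4.89 at the lowest, 5.72 at the median and 6.13 at the highest, and the 15 BALB/c spleens at 3.24, 4.19 and 5.48, against 1.68, 2.45 and 3.25 on the 48 arrays of C57BL/6J females and 2.11, 2.60 and 3.11 on the 10 of males. BALB/c spleens overlapped DBA/2J arrays, and their lowest array lay just under the highest of C57BL/6J females. Across 95 spleens without the arrays that stand apart, Ifi202b correlated with Ifi203 at r = -0.63, and across 82 nodes at r = -0.69 (Pearson, given as a description: the points share strains).

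Whether a tumour changed these genes in spleen or node was asked with limma, as the mean over tumour families of tumour-bearing minus tumour-free mice of the same strain and sex. The 4 B16 stocks were averaged to 1 family and both TRAMP-C lines to another. Arrays were the replicates, so the SE and p reflect spread between mice and not between families. Families of the same strain and sex shared the same 5 tumour-free organs. To be called, a gene needed a log2 change of at least 1 and an adjusted p under 0.05 (Benjamini-Hochberg, over every gene in the fit). In whole organs, fewer cells of a type and less RNA per cell cannot be told apart. In spleens none of the 5 genes was called by limma, none had an unadjusted p under 0.05, and changes ran from -0.03 to 0.15; 0.231% of all genes were called. Among those, the neutrophil markers Ngp, S100a8 and S100a9, the erythroid genes Alas2 and Slc4a1 and, of 15 interferon-stimulated genes tested, only Rsad2 (1.17 ± 0.28, SE, adjusted p = 0.00639) were higher. Of 12 inflammasome genes and 12 genes of cytosolic nucleic acid sensing tested, none was called.

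Single families gave 2 calls in spleen, with all 5 genes tested in each family. In 4T1 spleens Ifi202b stood at 4.57, 4.15, 4.60, 5.48 and 5.22, against 4.14, 3.55, 3.48, 3.75 and 3.66 in tumour-free BALB/c spleens, a change of 1.09 ± 0.23 (SE, limma adjusted p = 0.00223), where 0.626% of all genes were called. All 5 tumour-bearing arrays lay above all 5 tumour-free arrays, and the change was 1.08 without the array that stands apart, but 0.92 without mouse 35 and 0.99 without mouse 36, below the minimum of 1. The 5 tumour-free arrays and that of 4T1 mouse 33 (4.15) lay below 4.3, so the size rests partly on low signals. All 7 neutrophil markers tested were higher in 4T1 spleens, with a median change of 2.66 against -0.02 for all genes, and their part in the Ifi202b result was not tested. In Renca spleens Aim2 stood at 10.15, 10.27, 10.20, 10.29 and 10.20, against a mean of 9.18 ± 0.38 (SD, n = 5) in tumour-free BALB/c spleens, a change of 1.04 ± 0.22 (SE, adjusted p = 0.00545), where 0.216% of all genes were called. This change was 0.99 without the tumour-free spleen that stands apart, 0.93 without tumour-free mouse 8 and 0.92 after quantile normalisation, each again under 1.

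Whether the effect of a tumour on spleens differed between strains was tested in the same fit, and no member was called. The mean change over the 3 BALB/c models minus that over C57BL/6J female families was 0.85 ± 0.26 for Ifi205 (SE, limma adjusted p = 0.0456) and 0.87 ± 0.24 for Aim2 (adjusted p = 0.0294). For Ifi205 this set a change of 0.77 in BALB/c against -0.08 in C57BL/6J, and for Aim2 a change of 0.58 against -0.29. For Ifi202b the difference was 0.80 with an adjusted p of 0.0582. None of the 5 reached the minimum of 1, so 0 were called (1.05% of all genes were), 3 had an unadjusted p under 0.05, and 2 of 5 had an adjusted p under 0.05, where 3.25% of all genes did. Without the arrays that stand apart the difference was 0.65 for Ifi205 and 0.82 for Aim2, with adjusted p values of 0.308 and 0.150. Those arrays include 3 of the tumour-free spleens on which the contrast rests. The members were chosen with strain differences of tumour-free spleens known. The contrast subtracts those spleens, so its p values carry that choice and nothing is read from them. In the same contrast 2 of 8 T cell markers were called higher (median 0.70) and 2 of 4 erythroid markers lower (median -1.88), and their part in the members' values was not tested.

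In nodes the picture depended on which arrays were used. Over all families none of the 5 genes was called by limma and 4 had an unadjusted p under 0.05; 0.453% of all genes were called. Ifi203 was 0.48 ± 0.14 higher (SE, adjusted p = 0.0120), Ifi205 0.42 ± 0.14 higher (adjusted p = 0.0315) and Pycard 0.36 ± 0.09 higher (adjusted p = 0.00202) in tumour-bearing mice, and an adjusted p under 0.05 was met by 16.1% of all genes. Without the arrays that stand apart, 4 of which are tumour-free nodes, the changes were 0.11, 0.22 and 0.18 with adjusted p values of 0.776, 0.528 and 0.435. Of 15 interferon-stimulated genes and 11 inflammasome genes tested in nodes, none was called, and 6 and 2 had an adjusted p under 0.05.

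Ifi202b was the 1 gene called in nodes of BALB/c models. It stood at 4.26, 3.39, 3.45, 3.60 and 7.90 in 4T1 nodes, at 3.67, 3.94, 4.42, 8.27 and 7.03 in CT26 nodes and at 4.22, 7.49, 7.40, 4.20 and 7.76 in Renca nodes, against 2.97, 3.80, 4.20, 3.92 and 4.08 in tumour-free BALB/c nodes. The mean change over the 3 models was 1.60 ± 0.42 (SE, limma adjusted p = 0.00716), and 2.2% of all genes were called. The arrays fell into separate levels: the 6 tumour-like nodes had 7.03 to 8.27, within the range of BALB/c tumours on the same scale (6.46 to 8.32), and the other 9 had 3.39 to 4.42. Without the 6 the change was 0.17 with an adjusted p of 0.796. By single model Ifi202b was called in Renca nodes (2.42 ± 0.51, SE, adjusted p = 0.000222), where 8.14% of all genes were called, and in CT26 nodes (1.67 ± 0.51, adjusted p = 0.0275), where 2.52% were, but not in 4T1 nodes (0.72, adjusted p = 0.634). Without the tumour-like arrays the changes were 0.42 in Renca nodes (adjusted p = 0.829) and 0.21 in CT26 nodes (adjusted p = 0.769), and the CT26 call was also lost without tumour-free node 10 (1.46, adjusted p = 0.0792). In Renca nodes 6 of 6 B cell markers (median change -2.33) and 7 of 8 T cell markers (-1.92) were called lower. In CT26 nodes 0 of 6 and 1 of 8 were, though their median changes were -1.38 and -1.14. On the same 6 arrays Ifi205 stood at 6.82 to 7.48, against 5.46 to 6.77 on the other 9, and Aim2 at 7.79 to 9.86, against 9.24 to 10.28. Over the 3 BALB/c models, 6 of 8 T cell and 2 of 6 B cell markers were called lower in nodes. The part of lymphocyte content in the Ifi202b call was not tested.

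**Figure D2:**
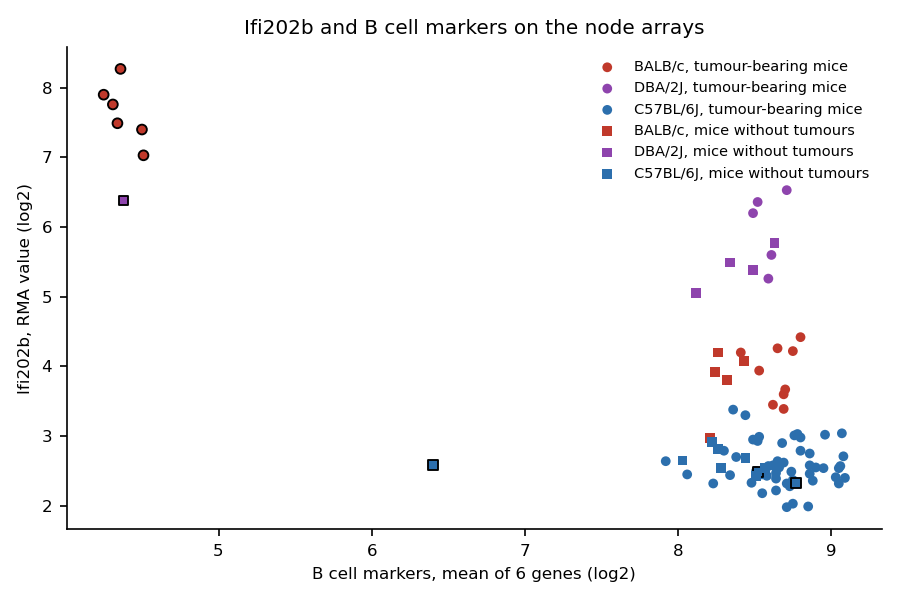
Log2 RMA level of Ifi202b (vertical axis) against the mean log2 level of 6 B cell markers (horizontal axis) on each node array, coloured by host strain, with circles for tumour-bearing and squares for tumour-free mice and black edges for arrays that stand apart. The 6 black-edged BALB/c circles at the upper left carry Ifi202b at 7.03 to 8.27 and B cell markers at 4.25 to 4.51.

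The contrasts between strains or organs called none of the members. That between strains subtracts tumour-free nodes whose strain differences were known when the genes were chosen. The strain difference of the tumour effect in nodes called 0 of 5 by limma, where 1.77% of all genes were called, with 3 at an unadjusted p under 0.05; Ifi202b had the largest value, 1.65 with an adjusted p of 0.0827, and 0.40 without the arrays that stand apart. The difference between the tumour effect in nodes and that in spleens called 0 of 5, where 0.495% of all genes were called, with 2 at an unadjusted p under 0.05 and Pycard at 0.38 (adjusted p = 0.0594). In tumour-free mice, nodes minus spleens called 0 of 5 with none at an unadjusted p under 0.05, where 1.36% of all genes were called. Ifi203 differed by 0.20 there (adjusted p = 0.535), and 0.50 higher without the arrays that stand apart (adjusted p = 0.000989), still under the minimum of 1.

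Levels in tumours differed by model. A limma F test over the 15 models called 5 of 5, where 52.8% of all genes were called, a share that includes most genes. Ifi202b was above 4.3 on 15 of 15 BALB/c and 5 of 5 DBA/2J tumours, against 2 of 57 C57BL/6J tumours, so it passed the low-value filter through the tumours where it is high, had to differ, and nothing is read from its call. Between the highest and lowest model mean Ifi202b spanned 5.59, Aim2 5.72, Ifi203 4.76, Ifi205 4.10 and Pycard 1.84. Each gene had an order of its own.

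Ifi202b was high in tumours of mice that are not C57BL/6J. Model means were 7.95 ± 0.23 in 4T1, 7.73 ± 0.24 in CT26 and 7.04 ± 0.40 in Renca, all from BALB/c, and 6.84 ± 0.42 in P815 from DBA/2J (SD, n = 5 each), against 2.36 to 3.31 over the 11 C57BL/6J models. The 20 tumours from BALB/c and DBA/2J lay at 6.39 or above and the 57 from C57BL/6J at 5.22 or below. Neighbours in this order within a strain overlapped. In culture Ifi202b stood at 7.41 in 4T1, 8.64 in CT26 and 7.58 in Renca, all BALB/c lines, but at 3.63 in P815. P815 is the only DBA/2J line and was cultured once, so strain, tumour type and line cannot be told apart there. The 12 cultures assigned here to C57BL/6J, Hepa1-6 among them, stood at 2.42 to 3.60. P815 tumours had 6.39, 6.80, 6.49, 7.32 and 7.20, all above the single culture, with a mean difference of 3.21. That culture lay below 4.3, so the size of the difference rests on a low signal.

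Skin markers moved with Ifi202b in the TRAMP-C tumours. In 3 of these 10 tumours keratinocyte markers averaged 8.36 to 8.95 and Ifi202b stood at 3.92 to 5.22, while in the other 7 the markers averaged 5.06 to 5.83 and Ifi202b stood at 2.35 to 3.23. The ranges did not overlap for either measure, and the part of skin in the difference was not tested. In P815 the 3 tumours with keratinocyte markers of 7.69 to 8.61 had Ifi202b at 6.49 to 7.20, and the 2 with 4.80 and 5.52 had 6.39 and 7.32, and here the ranges of Ifi202b overlapped. The 1 CT26 tumour with such markers (7.23) had Ifi202b at 7.42, below the other 4 (7.64 to 8.08).

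Ifi203 was also highest in BALB/c tumours but graded among the rest. Model means were 8.32 ± 0.26 in 4T1, 8.29 ± 0.49 in CT26 and 7.80 ± 0.39 in Renca, 7.19 ± 0.57 in MC38 (n = 8) and 7.00 ± 0.32 in LL2, and lowest in B16F10 ATCC (3.68 ± 0.63) and B16F0 ATCC (3.56 ± 0.88) (SD, n = 5 unless given). P815 tumours averaged 4.93 ± 0.77, within the range of the B16 stocks. In culture Ifi203 was above 4.3 in all 3 BALB/c lines (7.32 to 8.86), in EL4 (6.98), Hepa1-6 (5.93), TRAMPC1 (5.07) and TRAMPC2 (4.82), and below it in the other 9. Over the 16 cultures, each a single array, Ifi203 and Ifi202b correlated at r = 0.81, a description in which the 3 BALB/c lines are high in both.

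Ifi205 had another leader. MC38 tumours averaged 8.62 ± 0.39 (SD, n = 8), followed by TRAMPC2 at 7.97 ± 0.42 and TRAMPC1 at 7.87 ± 0.53, and the 4 B16 stocks were lowest at 4.51 to 5.60. The 3 BALB/c models lay together at 6.97 to 7.19. Cultures of TRAMPC1 (7.35), TRAMPC2 (7.21), MC38 (7.10) and Hepa1-6 (7.05) were highest, and P815 (3.56) and B16F10 NCI (3.39) lowest.

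Aim2 was high in TC1 (9.57 ± 0.24), CT26 (9.47 ± 0.12) and MC38 (9.38 ± 0.57, n = 8) tumours, which overlapped, and lowest in the 4 B16 stocks, at 3.84 to 4.37 (SD, n = 5 unless given). Cultured lines fell into a high set, CT26 (10.33), Hepa1-6 (9.99), MC38 (9.70), PAN02 (9.38), EL4 (8.95) and LL2 (8.07), and a low set of 10 lines at 3.59 to 4.72, with none between. The low set holds 4T1, Renca, P815 and both TRAMP-C lines, whose tumours averaged 7.10 to 8.28. Pycard had a different order: P815 tumours averaged 6.88 ± 0.28 and B16F10 NCI 6.77 ± 0.42, with B16F0 ECACC lowest at 5.04 ± 0.44, and the highest cultures were EL4 (8.36), B16F10 NCI (8.02), P815 (7.79) and B16F10 ATCC (7.28).

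**Figure D3:**
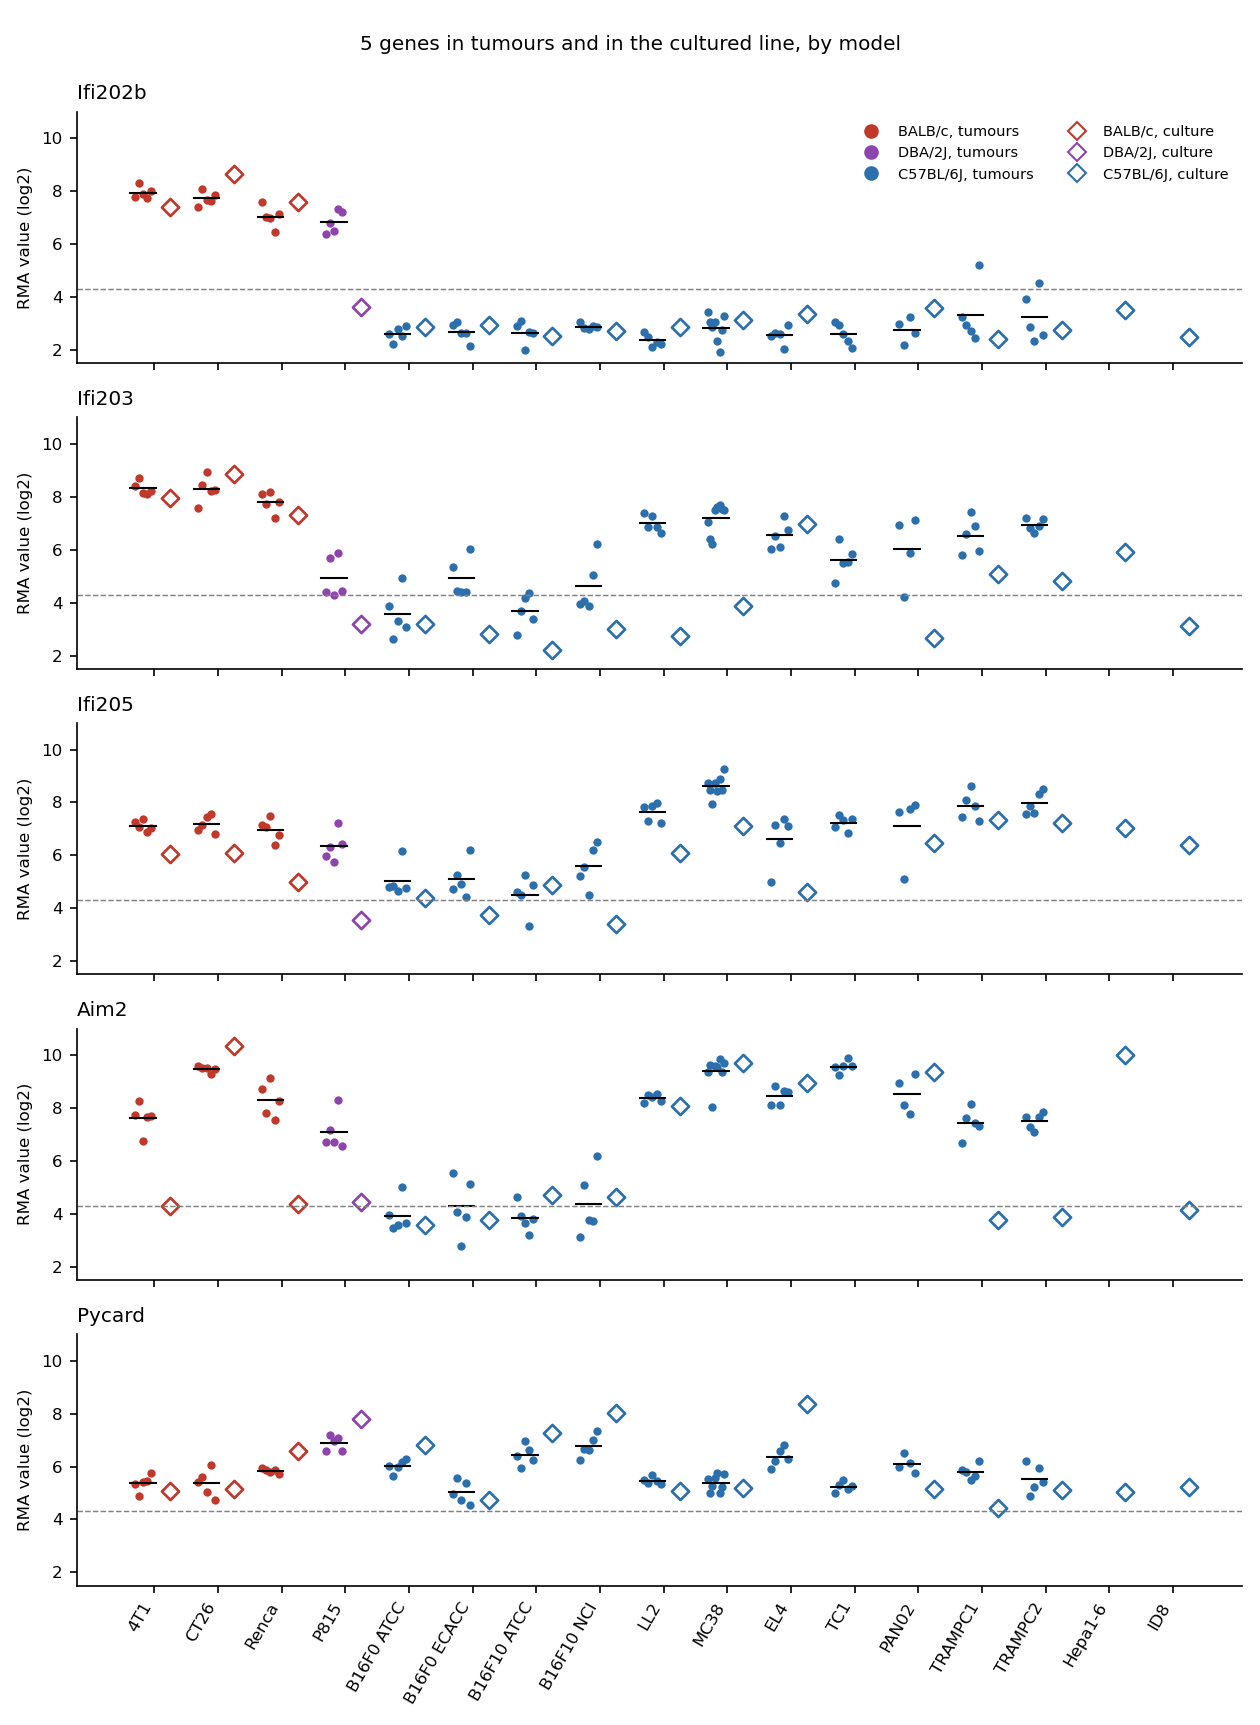
Log2 RMA levels of the 5 genes by tumour model, with a point for each tumour, a line at the model mean, an open diamond for the single culture (no TC1 culture was analysed here; Hepa1-6 and ID8 show a culture only) and a dashed line at 4.3. Aim2 tumours of 4T1, Renca, P815, TRAMPC1 and TRAMPC2 lie above their cultures, and Ifi202b is above 4.3 in every BALB/c and DBA/2J tumour.

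Tumours were compared with cultures by limma on 10 families with the single culture of each line as its reference. Ifi205 was higher in tumours in 10 of 10 families, by 1.42 ± 0.19 (SE, adjusted p = 2.89e-05), with family values from 0.63 in PAN02 to 2.78 in P815. In 11 of 14 lines every tumour exceeded the culture. For Ifi205 the cultures of P815 (3.56), B16F10 NCI (3.39) and B16F0 ECACC (3.76) lay below 4.3, so the sizes in those lines rest on low signals. Ifi203 was higher in 8 of 10, by 1.57 ± 0.44 (adjusted p = 0.00861), and it was lower in CT26 (-0.57) and EL4 (-0.44). The values of LL2 (4.27), PAN02 (3.37), MC38 (3.32), P815 (1.73) and B16 (1.4) stand against cultures below 4.3. Those cultures stood at 2.74, 2.67, 3.87 and 3.20, and at 2.22 to 3.18 in the B16 stocks. The sizes and order of these values rest on low signals. Families with cultures above 4.3 gave 1.79 in TRAMP-C, 0.49 in Renca and 0.37 in 4T1, besides the lower values of CT26 and EL4. The size of the mean thus rests largely on low signals. With these 2 genes, 2 of 5 were called, both higher in tumours; 13.3% of all genes were called and 2.04% were called higher. The median change of all genes was -0.26, and subtracting each array's median gave 1.72 for Ifi203 and 1.58 for Ifi205.

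Aim2 split by family. The difference was 3.91 in Renca, 3.66 in TRAMP-C, 3.34 in 4T1 and 2.67 in P815, and from -0.86 to 0.30 in the other 6, among them the lines with high cultures; the cultures of the first 4 families stood at 3.76 to 4.43, near the low level of 4.3. The mean was 1.13 ± 0.53 (SE) and was not called (limma adjusted p = 0.0915), though it was after quantile normalisation (1.36, adjusted p = 0.0338), which called 3 of 5 members. In 6 of 14 lines every tumour exceeded its culture and in 4 every tumour lay below it. Ifi202b averaged 0.05 ± 0.33 (adjusted p = 0.920), with P815 at 3.21 and the other 9 families averaging -0.30. For this gene the P815 culture (3.63) and every culture assigned to C57BL/6J lay below 4.3. Only 2 of 57 C57BL/6J tumours lay above it, so these sizes rest largely on low signals. Pycard averaged -0.13 ± 0.25 (adjusted p = 0.692), lowest in EL4 at -2.0.

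**Figure D4:**
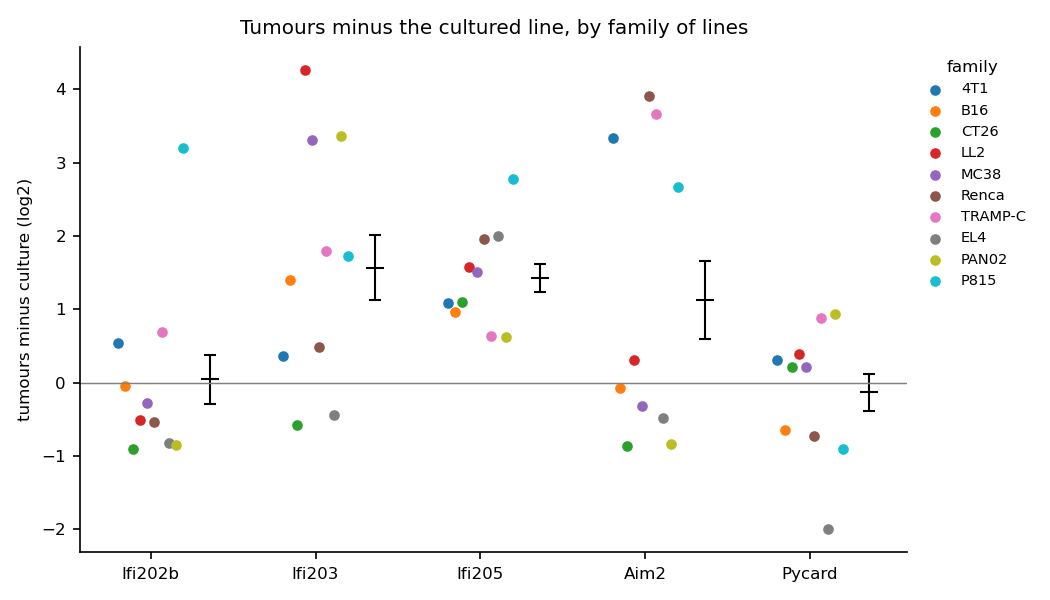
Tumour minus culture difference on the log2 scale for the 5 genes, with a point for each of 10 families and a bar for the limma mean ± SE. All 10 points of Ifi205 lie above 0, and those of Aim2 fall into 4 families at 2.67 or more and 6 at 0.30 or less.

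Other genes of the pathway were counted in the same contrast. Of 12 inflammasome genes tested 3 were called higher in tumours and none lower: Il1b, an inflammasome substrate (2.76 ± 0.28, SE, adjusted p = 2.47e-06), Casp1, its protease (1.71 ± 0.49, adjusted p = 0.00931), and Casp4, the inflammatory caspase known as caspase-11 in mice (1.64 ± 0.46, adjusted p = 0.00819). The list's median was 0.38, against -0.26 for all genes. Of 12 genes of cytosolic nucleic acid sensing, only Zbp1, a sensor of Z-form nucleic acids, was called (2.35 ± 0.30, adjusted p = 1.86e-05), with a list median of -0.33. Of 15 interferon-stimulated genes 5 were called higher and none lower, from Rtp4 (1.46) and Oasl2 (1.37) to Cxcl10 (1.23), Oas2 (1.21) and Ifit1 (1.14), with a list median of 0.95.

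Macrophage and monocyte markers were also higher in tumours. All 8 tested were called higher, with Ccr2 (4.42), Msr1 (4.08) and Mrc1 (3.43) largest, and their mean level was 4.22 to 8.26 in tumours (median 6.80), against 3.84 to 4.39 in cultures (median 4.06). Over the 77 tumours, the level of these markers correlated with Ifi203 at r = 0.85, Aim2 at 0.77, Ifi205 at 0.73 and Ifi202b at 0.49, and with Pycard at -0.22. Members correlated with each other at 0.81 (Ifi205 and Aim2), 0.77 (Ifi203 and Aim2) and 0.76 (Ifi203 and Ifi205). The 77 points share 15 models, and these are descriptions; the part of macrophage content in the tumour levels was not tested.

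**Figure D5:**
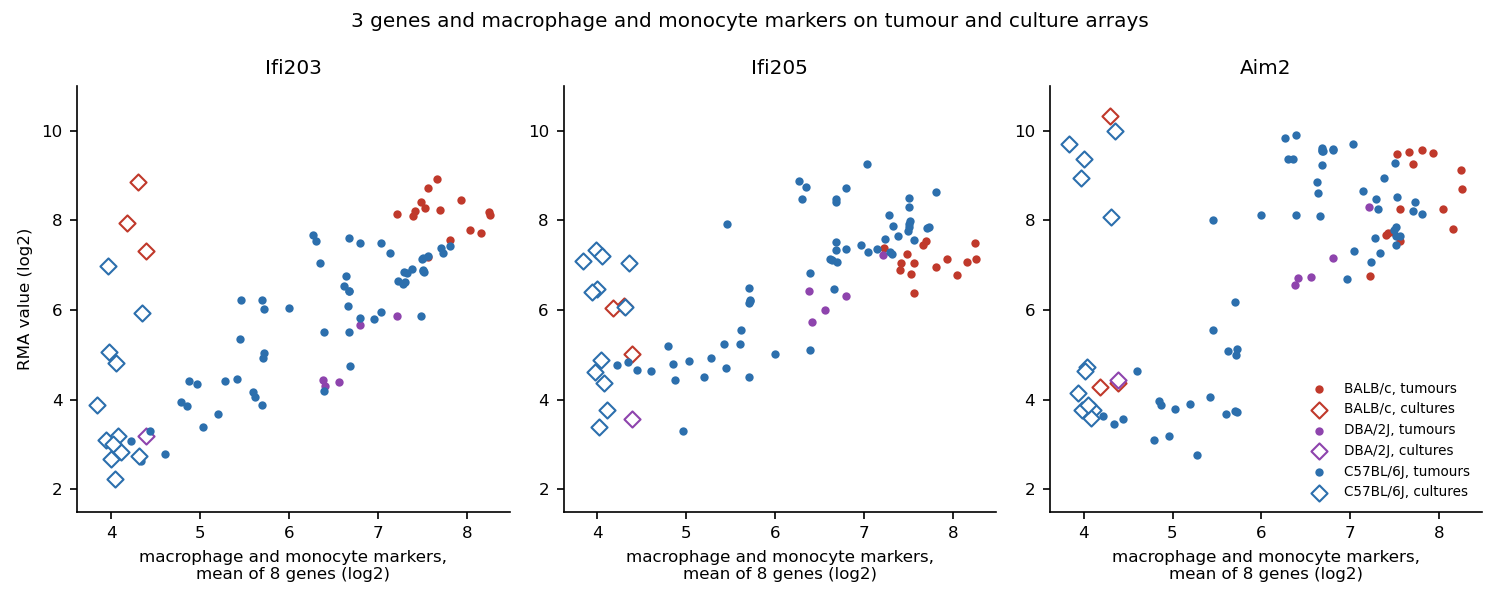
Log2 RMA level of Ifi203, Ifi205 and Aim2 (vertical axes) against the mean log2 level of 8 macrophage and monocyte markers (horizontal axes), with a dot for each tumour and an open diamond for each culture, coloured by strain. Tumours lie between 4.22 and 8.26 on the horizontal axis and cultures between 3.84 and 4.39, and over the tumours r was 0.85 for Ifi203, 0.73 for Ifi205 and 0.77 for Aim2.

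The genes most like each member over the means of all 68 groups of organ and model, by Pearson r, were as follows. Ifi203 was closest to Trim30a (0.90), Slfn8 (0.89) and Trim34a (0.86), and Aim2 to Gmfg (0.82), Apobec1 (0.81) and Gsap (0.79). Ifi205 was closest to Dcn, which encodes the matrix proteoglycan decorin (0.80), Il1r1, the interleukin-1 receptor (0.76), and Pld2 (0.75), and Pycard to Ncoa1 (0.72), Trpv2 (0.71) and Batf (0.69). Ifi202b was closest to Sycp1, a gene of the meiotic synaptonemal complex (0.86), Gm16415 (0.76) and Hddc3 (0.69), and its highest r with another member was 0.16, with Ifi203. Groups of 1 model share mice and strain, so these values are descriptions.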

How the data were processed

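RNA from tumours, nodes, spleens and cultured lines was amplified (WT-Ovation Pico), labelled and hybridised to Affymetrix exon arrays, per the labels' protocols. The deposited values are log2 intensities after RMA, per the submitters' processing notes; which arrays were processed together, with which RMA version, and on what genome build was not given in the sources used here. Of 17831 probe sets, 15620 carry 1 gene symbol, 1370 several and 841 none; 15559 matched RefSeq, and the probe set with the highest mean stood for each of 375 genes with several, giving 15224 genes. No deposited column lacked a sample. No array pair was identical (highest r 0.984), and array medians ran from 5.19 to 5.66. Depth does not apply to arrays; the number of arrays limits the precision.

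Fits used limma 3.58.1 (lmFit, eBayes, two-sided) in R 4.3.3, with Python 3.11.15 for descriptions, on genes above 4.3 in at least 4 of the arrays fitted; all 5 measured members passed in the fits of tumours, nodes and spleens, and 4 in the comparisons of BALB/c with C57BL/6J organs. On simulated data, 100 of 100 genes changed by 2 on the log2 scale were called for spleens (13539 genes), nodes (13504), tumour-free organs (13187) and tumours against cultures (13498), and 47, 52, 42 and 52 of 100 changed by exactly 1, the minimum. The members and lists were chosen with earlier results of these data known. Genes named are the members, the list genes called, the 3 genes most like each member and neighbours within 1 Mb. Arrays that stand apart were found by correlation over the 3000 most variable genes (a margin of 0.02 toward another tissue) or B cell markers under 7, a rule chosen after seeing the data; 6 TRAMP-C spleens closer to nodes by at most 0.019 were kept. Organs of 1 animal share its labelled number: with the animal as replicate block the consensus correlation of nodes and spleens was 0.0129. Alternatives tried were scaling, filter, probe set choice, variance model, fold minimum, weighting, replicate block and leaving out arrays.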

Additional observations from a re-analysis of the deposited data

Results flagged for a closer look

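Within groups of 4 to 10 arrays, 19 of 260 sets of values held an array far from the others by Dixon's test, which chance gives in about 1 of 20 groups. For Ifi202b these were 4T1 node 36 (7.90, others 3.39 to 4.26), a tumour-like node, TRAMPC1 tumour 30 (5.22, others 2.45 to 3.23), which carries high keratinocyte markers, Renca spleen 24 (5.03, others 3.54 to 3.88) and B16F0 ECACC spleen 2 (1.86, others 2.59 to 2.79). Mouse 24 of Renca also gave a tumour-like node.

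For Ifi203 they were the tumour-free nodes low in B cell markers of C57BL/6J female 5 (5.51) and DBA/2J female 5 (5.30), and MC38 spleen 58 (7.31), where Pycard was low too (5.1). The same 2 nodes were low in Aim2 (7.09 and 6.53). Other Aim2 values were MC38 tumour 59 (8.02, others 9.37 to 9.85), CT26 tumour 28 (9.27) and the tumour-free spleen of C57BL/6J male 4 (9.61). For Ifi205 they were PAN02 tumour 3 (5.11, others 7.65 to 7.92), B16F0 ATCC tumour 7 (6.16, others 4.66 to 4.84), EL4 spleen 17 (6.38), LL2 spleen 18 (5.98) and Renca node 23 (5.97). The tumour-free spleen of DBA/2J female 1 was high in Pycard (6.78).

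In spleens the tumour effect in BALB/c minus that in C57BL/6J females was 0.85 for Ifi205 and 0.87 for Aim2, each with a limma adjusted p under 0.05 but below the minimum of 1. Without the arrays that stand apart the values were 0.65 (adjusted p = 0.308) and 0.82 (adjusted p = 0.150). The contrast subtracts tumour-free spleens whose strain differences were known when the genes were chosen, so nothing is read from these p values.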

How the results depend on the processing

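The count of called members changed under the alternatives named here. With no minimum fold change, 3 members were called in nodes over all families, 2 in the strain difference of spleens and 2 in Renca spleens. Quantile normalisation called 1 (Ifi205, 1.02) in the strain difference of spleens and 0 in Renca spleens, and 3 against 2 in tumours minus cultures, where Aim2 joined Ifi203 and Ifi205. Without the arrays that stand apart 0 were called in Renca spleens and in nodes of BALB/c models, CT26 and Renca (0 there also without only the 6 tumour-like arrays), and 2 counted by strain in DBA/2J nodes. Uncalled values near 0 changed sign: in spleens Ifi203 was 0.078 without the arrays that stand apart and Ifi205 was -0.022 as a mean over models, and in tumours minus cultures Pycard was 0.020 with array medians subtracted and 0.17 after quantile normalisation. Leaving out 1 array at a time, the spleen change ran from -0.0071 to 0.091 for Ifi202b, -0.16 to 0.062 for Ifi203, -0.040 to 0.051 for Aim2 and -0.058 to 0.020 for Pycard; leaving out 1 array or family, tumours minus cultures ran from -0.30 to 0.15 for Ifi202b and -0.25 to 0.074 for Pycard. The members called ran from 0 to 1 in 4T1 spleens, in Renca spleens, in CT26 nodes (0 without tumour-free node 10 or CT26 node 28 or 29, Ifi202b 0.97 to 2.12) and in the strain difference of nodes, where Ifi202b passed (1.78 to 1.82) without CT26 node 25 or 26 or Renca node 19 or 23, none of them tumour-like. The members counted by strain ran from 1 to 2 in BALB/c spleens (Ifi203 joined without C57BL/6J spleen 4) and in DBA/2J nodes (without C57BL/6J node 5). With the animal as replicate block, Ifi203 in nodes minus spleens of tumour-free mice kept 0.20 (limma adjusted p = 0.556). Without the arrays that stand apart the block gave 0.50 (limma adjusted p = 0.00206). No tumour-free C57BL/6J female then kept both organs, so that value leaves this host group out and is not the same contrast. The replicate block changed no member's call.

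Counts over all genes, whose cause of change was not tested, moved more. Without a minimum fold they were 699 against 31 in spleens, 2169 against 61 in nodes and 7199 against 1846 for tumours minus cultures. Under the other alternatives they ran from 3 to 33 in spleens, 35 to 66 in nodes, 77 to 193 and 2 to 309 in the strain differences of spleens and nodes (141 and 239), 45 to 296 in nodes of BALB/c models (296), 57 to 349 in CT26 nodes (340), 8 to 1113 in Renca nodes (1097), 25 to 84 in Renca spleens (29), 11 to 77 in nodes minus spleens of the tumour effect (68), 174 to 367 in tumour-free nodes minus spleens (177) and 425 to 1851 for tumours minus cultures. Low signals limit Ifi202b in C57BL/6J and BALB/c organs, and single cultures limit every comparison with cultures.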
